A study of Mus musculus with 10 samples.

Results

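Scavenger and efferocytosis receptors are the surface proteins with which macrophages take up modified lipoproteins, glycoproteins, cell debris and dying cells. A set of 10 genes of this kind, chosen by symbol, was read from a table of 24541 gene symbols: Mrc1, Stab1, Msr1, Cd163, Marco, Trem2, Timd4, Cd36, Mertk and Axl. Each had at least 1 transcript in the table, and 9 of the 10 passed the filter on low counts and were tested. Marco did not pass.

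RNA was sequenced from kidney cells captured with magnetic beads against F4/80, a macrophage surface protein encoded by Adgre1. The TG group held 4 mice of the C57BL/6 background that were heterozygous for the C105F substitution in the endogenous Umod gene (cysteine to phenylalanine), which was introduced by genome editing of C57BL/6J embryos. The WT group held 6 wild-type littermates of the same background, and all mice were 12 to 16 weeks old. The study asked whether macrophage gene expression links uptake of aggregated uromodulin, the urinary protein made from Umod, to kidney disease. Each library came from a separate mouse and is named here by its group and replicate number (TG1, TG2, TG4 and TG5, and WT1 to WT6).

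Scavenger receptors bind polyanionic or oxidised ligands through several unrelated folds. Msr1 and Marco are collagenous class A receptors, Cd36 is a class B receptor for fatty acids and oxidised lipoproteins, Mrc1 is the mannose receptor, Stab1 is a multidomain receptor that clears modified proteins, and Cd163 takes up haptoglobin-haemoglobin complexes. Efferocytosis, the uptake of dying cells, starts with phosphatidylserine on their surface, the lipid that the next receptors reach. Timd4 binds it directly, and Trem2 senses lipids and apoptotic cells through the adaptor Tyrobp. Mertk and Axl are receptor tyrosine kinases that reach it through bridging proteins, Gas6 for both and Pros1 for Mertk.

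The libraries differed widely in how much macrophage RNA they held. Adgre1 had 58.2, 58.6, 229 and 819 CPM (counts scaled to library size) in TG1, TG2, TG4 and TG5. Across the WT libraries its lowest value was 14.0 CPM in WT1, its median 82.8 CPM and its highest 406 CPM in WT6. TG5 and WT6 therefore stood at the macrophage-rich end and WT1 at the poor end, and the groups overlapped (log2 fold change TG over WT 1.20, SE 0.972, edgeR adjusted p = 0.959; -0.13 without TG5). In bulk RNA, fewer cells of a type and less RNA per cell cannot be told apart. All 15 resident macrophage markers were present, led by Cd74 and C1qb (means of 3126 and 377 CPM), and their sum ran from 1875 to 20010 CPM in TG and from 694 to 11372 CPM in WT. Proximal tubule RNA was far more abundant, with Kap and Gpx3 at means of 31747 and 23085 CPM and a sum of 46718 to 93920 CPM in TG and 49674 to 109611 CPM in WT. Endothelial markers (Plvap 84.3 and Eng 61.1 CPM) summed to between 359 and 581 CPM in TG and between 273 and 835 CPM in WT. Fibroblast and pericyte markers (Rgs5 83.7 and Dcn 71.3 CPM) summed to between 213 and 609 CPM in TG and between 199.9 and 881 CPM in WT. Total estimated counts per library lay between 45380415 and 73643200.

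On the length-scaled level (FPKM, fragments scaled to transcript length and library size, averaged over the 10 libraries), Cd36 had the highest mean, 144 ± 42.6 FPKM (SD, n = 10). In TG5, though, Mrc1 stood above it, with 151 FPKM against 115 for Cd36. Axl (29.8 ± 31.0) and Mrc1 (26.2 ± 45.3) followed, Axl being above Mrc1 in 9 of 10 libraries. Stab1 had 11.6 ± 16.7, Mertk 6.01 ± 1.93, Trem2 5.91 ± 9.42 and Msr1 4.09 ± 7.12 FPKM. The order among these was not stable between libraries: Stab1 exceeded Mertk in 4 of 10, Mertk exceeded Trem2 in 6 of 10 and Trem2 exceeded Msr1 in 8 of 10. Cd163 averaged 2.07 ± 4.47 FPKM and lay below Msr1 in all 10 libraries. Timd4 (0.297 ± 0.418) and Marco (0.0385 ± 0.0550) were near the detection limit. The SD exceeded the mean for every member but Cd36 and Mertk, whose levels varied least.

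The mannose receptor Mrc1 (gene 17533, chromosome 2, 14229414 to 14332023 on mm10) had 38.7, 39.3, 147 and 764 CPM in TG1, TG2, TG4 and TG5. In WT its lowest value was 7.10, its median 42.3 and its highest 169 CPM. TG5 alone lay above all WT libraries, and TG1 and TG2 lay below the WT median. The group means were 247 ± 348 CPM in TG (SD, n = 4) and 58.1 ± 59.2 CPM in WT (SD, n = 6), and the log2 fold change was 2.09 (edgeR, SE 0.991, adjusted p = 0.862).

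Stab1, the clearance receptor stabilin 1 (gene 192187, chromosome 14, 31139017 to 31168641), had 28.5, 30.9, 94.6 and 420.2 CPM in TG1, TG2, TG4 and TG5. Its WT values had a minimum of 6.61, a median of 34.6 and a maximum of 166 CPM. The libraries stood in nearly the order of Mrc1, with TG5 above all WT libraries, and the log2 fold change was 1.43 (edgeR, SE 0.936, adjusted p = 0.959). Msr1, the macrophage scavenger receptor of class A (gene 20288, chromosome 8, 39581700 to 39642678), had 4.20, 3.86, 9.96 and 76.4 CPM in TG1, TG2, TG4 and TG5, and 0.762 (lowest), 4.29 (median) and 15.8 CPM (highest) in WT. Its log2 fold change of 1.94 (edgeR, SE 0.986, adjusted p = 0.907) rested on TG5, the single library above the WT range, and was -0.04 without it.

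Cd163, the haemoglobin scavenger receptor (gene 93671, chromosome 6, 124304651 to 124330527), had 1.33, 1.10, 9.21 and 61.7 CPM in TG1, TG2, TG4 and TG5. In WT it ran from 0.405 CPM, 24 estimated counts in WT3, through a median of 1.66 to 7.42 CPM in WT6. TG4 and TG5 were above all WT libraries, while TG1 and TG2 were within the WT range. Its log2 fold change of 2.90 (edgeR, SE 1.17, adjusted p = 0.799) was the largest of the 9. Marco, the other collagenous receptor (gene 17167, chromosome 1, 120474538 to 120505084), had 0, 0, 2 and 14 estimated counts in TG1, TG2, TG4 and TG5. Among the WT libraries it had 17 counts in WT5, 10 in WT6, 4 in WT1 and 0 in the other three. A count of 0 allows up to 0.0577 CPM in TG2, the widest of these limits, which cover counting error alone.

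Trem2 (gene 83433, chromosome 17, 48346401 to 48352276) had 2.14, 3.90, 8.45 and 33.1 CPM in TG1, TG2, TG4 and TG5. Its WT values ran from 0.560 through a median of 1.71 to 6.65 CPM. All 4 TG libraries were above the WT median and TG4 and TG5 were above all WT libraries, with group means of 11.9 ± 14.4 CPM in TG (SD, n = 4) and 2.54 ± 2.42 CPM in WT (SD, n = 6). The log2 fold change was 2.22 (edgeR, SE 0.886, adjusted p = 0.798). Timd4, the phosphatidylserine receptor TIM-4 (gene 276891, chromosome 11, 46810799 to 46844333), had 0.129, 0.346, 0.567 and 2.80 CPM in TG1, TG2, TG4 and TG5, and 0, 0.265 and 1.299 CPM as the lowest, median and highest WT value. It had 0 estimated counts in WT2 and WT3, which allows up to 0.0480 and 0.0507 CPM, and 7 in TG1, so its log2 fold change of 1.22 (edgeR, SE 1.304, adjusted p = 0.960) rests on few counts.

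Axl and Mertk belong, with Tyro3, to the TAM kinases. Axl (gene 26362, chromosome 7, 25756500 to 25788733) had 55.5, 57.3, 169 and 465 CPM in TG1, TG2, TG4 and TG5, and a WT minimum of 26.3, median of 71.2 and maximum of 322 CPM. It spread over the same libraries as Mrc1, with overlapping groups and a log2 fold change of 0.67 (edgeR, SE 0.809, adjusted p = 0.960). Mertk (gene 17289, chromosome 2, 128698915 to 128803007) had 16.9, 15.5, 33.3 and 34.3 CPM in TG1, TG2, TG4 and TG5, and 19.9 (lowest), 27.3 (median) and 36.3 CPM (highest) in WT. Its highest and lowest libraries differed 2.34-fold, against 17.7-fold for Axl, and the log2 fold change was -0.16 (edgeR, SE 0.260, adjusted p = 0.962).

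Cd36, the class B scavenger receptor and fatty acid carrier (gene 12491, chromosome 5, 17781690 to 17888959), had 508, 364, 559 and 378 CPM in TG1, TG2, TG4 and TG5. Its WT values ran from 247 CPM in WT6, the library with the most Adgre1 of that group, through a median of 549.8 to 754 CPM in WT2. The groups overlapped, with means of 452 ± 96.1 CPM in TG (SD, n = 4) and 539 ± 192 CPM in WT (SD, n = 6) and a log2 fold change of -0.25 (edgeR, SE 0.287, adjusted p = 0.960).

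**Figure D1:**
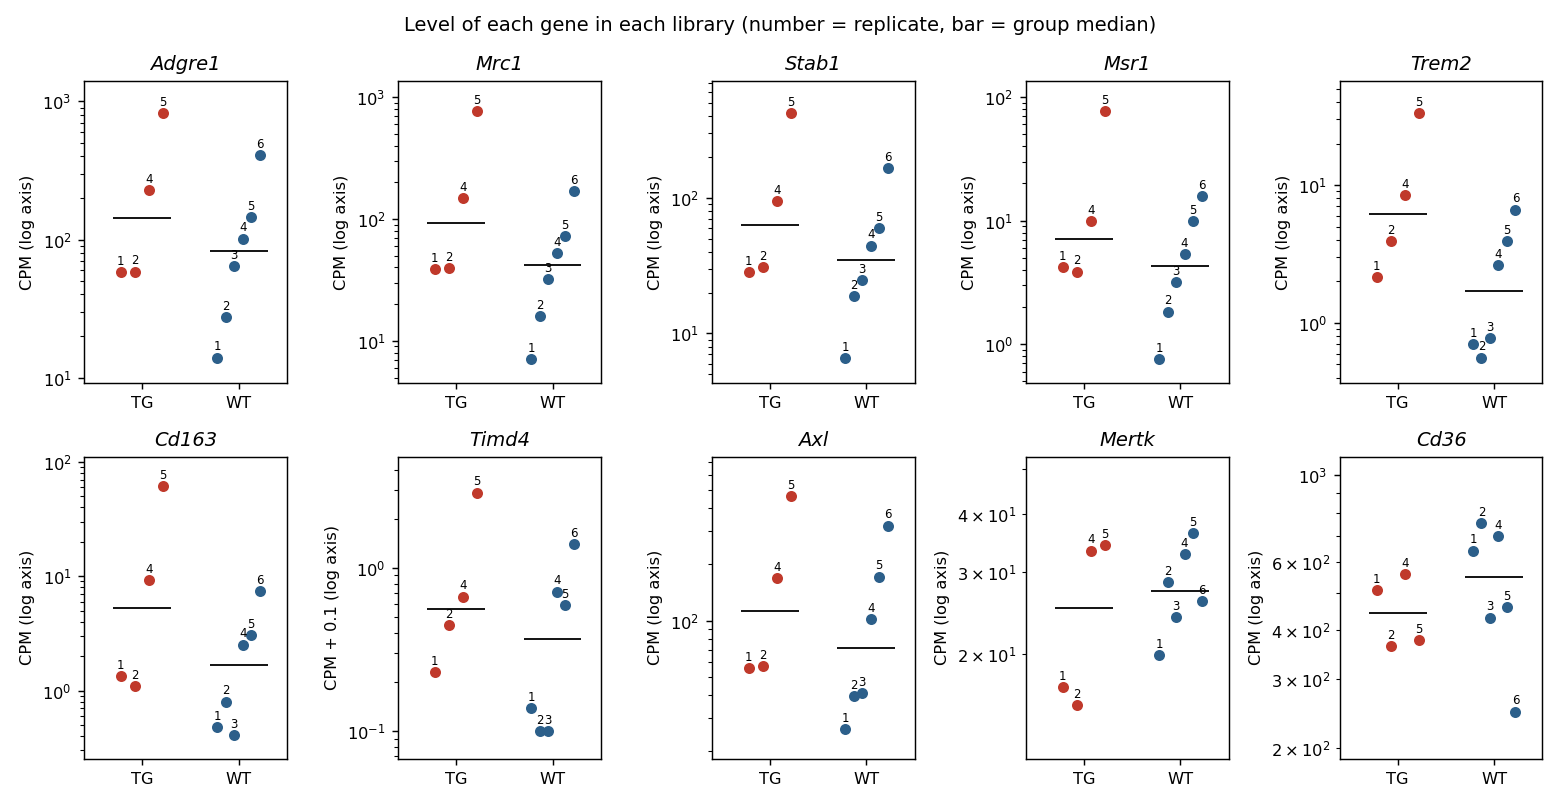
CPM of Adgre1 and of the 9 tested receptors in each library on log axes, TG left and WT right in each panel, with points numbered by replicate and a bar at the group median (Timd4 as CPM + 0.1, since 2 libraries were at 0). For Adgre1 and the 7 receptors other than Mertk and Cd36, TG5 is the highest point of a wide spread, while Mertk stays between 15.5 and 36.3 CPM and Cd36 between 247 and 754 CPM.

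Over all genes, 0 of the 9 tested members were called between TG and WT by edgeR, 2 of 9 (Trem2 and Cd163) having an unadjusted p under 0.05, and 0 by DESeq2 or limma. Such an unadjusted p was reached by 892 of 15123 genes in the edgeR fit. In the same fit 0.198% of 15123 genes were called (0.179% higher and 0.0198% lower in TG; 30 genes, 14 without TG1 and 19 without TG5). None of the 9 members had groups that did not overlap, against 1.96% of all genes (0.946% with all TG above all WT and 1.02% with all TG below). The fold changes of 7 of the 9 members were positive, with a median of 1.43 beside 0.01 over all genes tested. Without TG5 those of Msr1, Stab1, Timd4 and Axl were -0.04, -0.06, -0.23 and -0.32, and those of Trem2, Cd163 and Mrc1 were 0.92, 0.67 and 0.37. Without TG2 that of Mertk was 0.0044.

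The sequences just upstream of the start sites are shown for Mrc1, Stab1, Trem2, Axl and Cd163, whose levels had called positive slopes on Adgre1. Cd36, whose slope was negative and not called, is shown at its start 17835896. That start held 12.15% of Cd36 counts and had a slope of 0.34 of its own, also not called. Cd163 and Cd36 hold neither motif searched. The sequences were taken from RefSeq's annotation of GRCm38.p6 (mm10), in which 9 of the 10 members had an entry, each covering 250 bases before the start, read 5′ to 3′ on the strand of the gene: Mrc1 at chr2:14229164-14229413 (+), Stab1 at chr14:31168642-31168891 (-), Trem2 at chr17:48346151-48346400 (+), Axl at chr7:25788734-25788983 (-), Cd163 at chr6:124304401-124304650 (+) and Cd36 at chr5:17835897-17836146 (-). Capitals mark GAGGAA, a core of sites for the myeloid factor PU.1, on either strand (it reads TTCCTC on the other), and, in Trem2, TGANTCA, the AP-1 motif.
Mrc1: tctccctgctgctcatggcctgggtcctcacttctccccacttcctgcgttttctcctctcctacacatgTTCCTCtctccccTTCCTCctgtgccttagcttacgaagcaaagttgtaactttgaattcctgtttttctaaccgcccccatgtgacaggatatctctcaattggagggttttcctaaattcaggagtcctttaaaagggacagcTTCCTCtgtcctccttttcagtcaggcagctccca
Stab1: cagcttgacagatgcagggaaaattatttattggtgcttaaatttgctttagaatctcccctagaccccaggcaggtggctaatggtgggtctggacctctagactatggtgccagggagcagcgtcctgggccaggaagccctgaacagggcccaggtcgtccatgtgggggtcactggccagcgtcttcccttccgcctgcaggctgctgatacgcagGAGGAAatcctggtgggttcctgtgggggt
Trem2: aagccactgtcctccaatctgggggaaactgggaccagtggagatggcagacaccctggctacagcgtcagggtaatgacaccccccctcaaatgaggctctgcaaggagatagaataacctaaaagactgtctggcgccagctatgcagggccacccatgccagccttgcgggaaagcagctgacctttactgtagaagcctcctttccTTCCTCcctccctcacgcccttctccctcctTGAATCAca
Axl: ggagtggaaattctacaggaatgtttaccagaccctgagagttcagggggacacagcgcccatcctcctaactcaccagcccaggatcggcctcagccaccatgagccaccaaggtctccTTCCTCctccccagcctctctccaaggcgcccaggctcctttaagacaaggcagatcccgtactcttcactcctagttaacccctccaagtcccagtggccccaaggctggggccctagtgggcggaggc
Cd163: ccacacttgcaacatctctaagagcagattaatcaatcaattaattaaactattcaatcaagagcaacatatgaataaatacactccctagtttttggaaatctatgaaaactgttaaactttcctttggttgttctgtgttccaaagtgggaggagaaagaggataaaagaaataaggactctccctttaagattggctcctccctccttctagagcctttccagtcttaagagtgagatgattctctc
Cd36: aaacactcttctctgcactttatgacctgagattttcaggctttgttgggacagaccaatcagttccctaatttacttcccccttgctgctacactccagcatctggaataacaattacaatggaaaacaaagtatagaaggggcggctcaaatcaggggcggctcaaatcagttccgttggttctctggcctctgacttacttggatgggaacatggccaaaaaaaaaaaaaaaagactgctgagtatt
GAGGAA or its complement occurred in 5 of the 9 member promoters (Mrc1, Stab1, Trem2, Axl and Marco), Mrc1 having 3 matches, and in 28.3% of 32851 promoters of the same 300-base window. The window of Cd163, Timd4, Mertk and Cd36 had no match, although Cd163, Timd4 and Mertk had called positive slopes too. TGANTCA occurred in 1 of 9, Trem2, and in 7.81% of all. The motifs did not overlap each other, and a match describes letters in the window and not a site in use. Spi1, which encodes PU.1, had 11.2, 9.67, 38.5 and 140.3 CPM in TG1, TG2, TG4 and TG5, and 5.89 (lowest), 13.3 (median) and 74.7 CPM (highest) in WT.

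How closely each receptor tracked the F4/80 RNA of its library was measured as a slope of its log2 level on log2 CPM of Adgre1, fitted together with genotype, where a slope of 1 means a level in proportion to Adgre1. Mrc1 had a slope of 1.01 (SE 0.0403), Msr1 0.99 (SE 0.0695), Stab1 0.93 (SE 0.0445), Cd163 1.14 (SE 0.138), Timd4 1.12 (SE 0.269) and Trem2 0.83 (SE 0.0899), so these 6 were within 2 SE of proportional. Axl had a slope of 0.78 (SE 0.0550). Mertk had 0.18 (SE 0.0602) and Cd36 -0.16 (SE 0.0767).

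By edgeR over all genes, 8 of the 9 slopes were positive and called, that of Cd36 being the exception (adjusted p = 0.121). limma also called 8, and DESeq2 called 9 of 9, with a slope of -0.17 for Cd36 (adjusted p = 0.0484), in a fit that called 41.3% of all genes. The background is large here: 36.0% of 15122 genes had a called slope, 19.7% a positive and 16.2% a negative one (5438 genes, 3477 without TG5). Slopes of at least 0.5, a size without a test, were found in 7 of the 9 members and in 7.68% of all genes. The median slope was 0.93 over the tested members and 0.88 over the 14 other resident macrophage markers, beside 0.01 over all genes. The adjusted p was 3.29e-08 for Mrc1, 7.21e-08 for Stab1, 1.05e-06 for Msr1, 1.11e-06 for Axl, 4.04e-05 for Trem2 and 0.00014 for Cd163. Those of Timd4 (0.00773) and Mertk (0.0325) were less secure. Timd4 lost its call without TG5 (adjusted p = 0.0501), and Mertk without TG1, TG2, TG5, WT1 or WT5 (adjusted p = 0.0818, 0.0829, 0.124, 0.0900 and 0.0614).

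Other cell types also moved with Adgre1. All 12 endothelial markers had positive slopes and 8 were called, with a median of 0.23, and all 10 fibroblast and pericyte markers were positive with 6 called and a median of 0.53, while 0 of 12 proximal tubule markers were positive and 2 were called, with a median of -0.08. With an endothelial score as a second covariate, 5 members kept a called slope: Mrc1 (1.02), Trem2 (0.99), Msr1 (0.92), Stab1 (0.82) and Axl (0.68). Cd163 (1.15, adjusted p = 0.0956), Timd4 (1.60, 0.291) and Mertk (0.21, 0.504) lost theirs, and 368 genes were called in all.

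**Figure D2:**
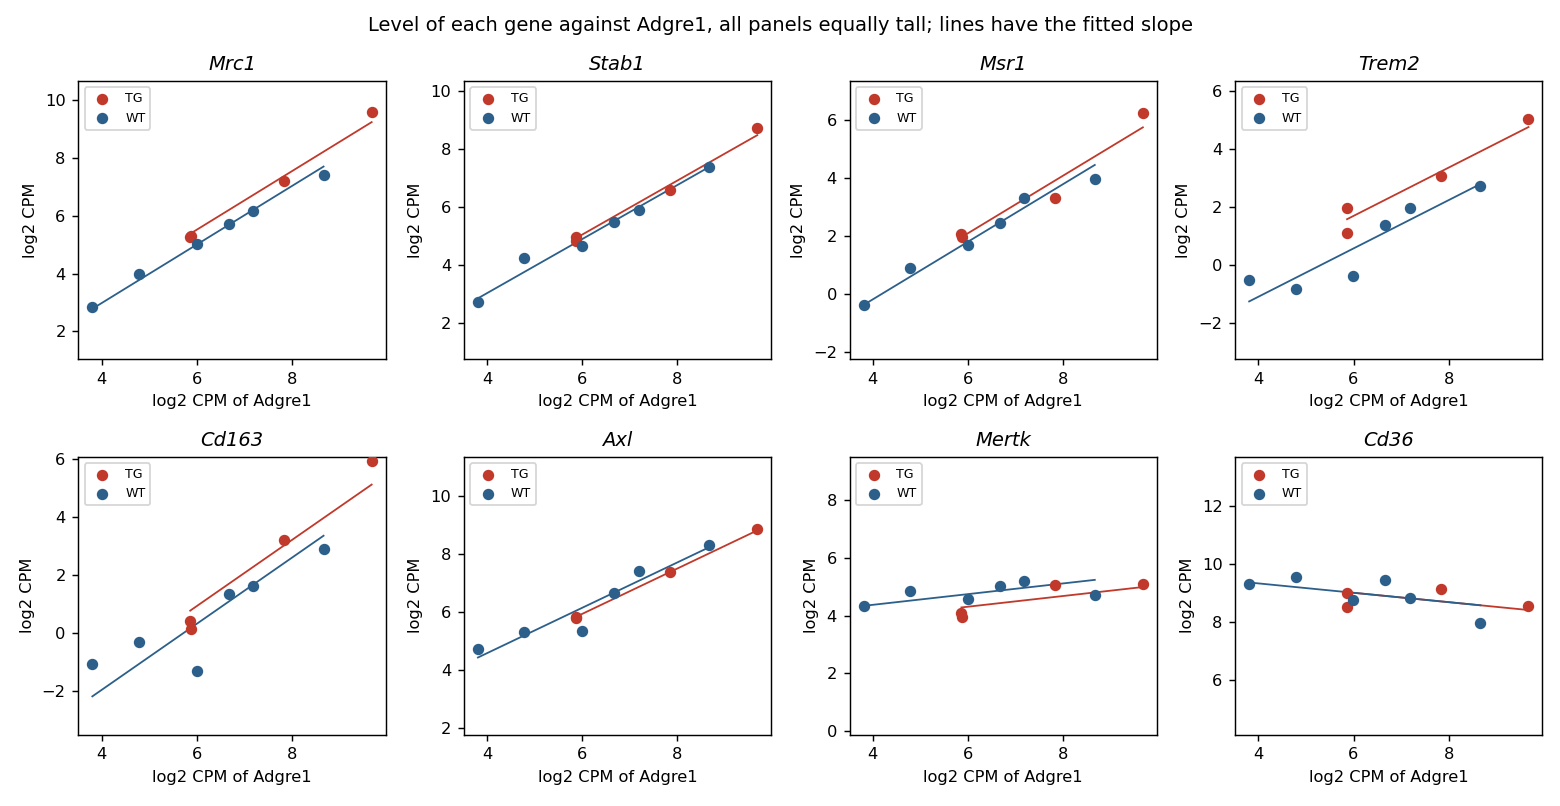
Log2 CPM of 8 receptors against log2 CPM of Adgre1, 1 point per library, TG in red and WT in blue, with lines of the fitted slope through the mean of each group and panels of equal height. Mrc1, Stab1 and Msr1 run along slopes of 1.01, 0.93 and 0.99, and Mertk (0.18) and Cd36 (-0.16) are nearly flat. The TG line lies farthest above the WT line for Trem2, Cd163 and Mrc1, and farthest below it for Mertk.

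Compared at equal Adgre1, the TG libraries had higher fitted levels of 6 of the 9 members and lower ones of Mertk, Axl and Cd36. None of these differences was called by edgeR. The log2 fold change of Trem2 was 1.09 (edgeR, SE 0.310, adjusted p = 0.209), in place of 2.22 without the covariate. For Mrc1 it was 0.52 (SE 0.138, adjusted p = 0.180). The unadjusted p was 0.00442 for Trem2 and 0.00276 for Mrc1, and the values ran from 0.90 to 1.28 for Trem2 and from 0.39 to 0.58 for Mrc1 over the 10 fits that left out 1 library. Cd163 had 0.68 (SE 0.503), Msr1 0.33 (SE 0.238), Timd4 0.28 (SE 0.831) and Stab1 0.15 (SE 0.154). Cd36 had -0.01 (SE 0.260), Axl -0.25 (SE 0.191) and Mertk -0.43 (SE 0.208, unadjusted p = 0.0616). For Mrc1 the standard error had been 0.991 without the covariate, and for Stab1 0.936.

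In this fit 0 of the 9 members were called by edgeR, 2 of 9 having an unadjusted p under 0.05, while 0.337% of 15122 genes were called (0.251% higher and 0.0860% lower in TG; 51 genes, 23 without TG1). Of those 15122 genes, 1953 had an unadjusted p under 0.05. DESeq2 called 2 of 9, Trem2 (log2 fold change 1.09, adjusted p = 0.0359) and Mrc1 (0.52, adjusted p = 0.0275), in a fit that called 2.2% of all genes, and limma called 0. The median over the tested members was 0.28, beside -0.02 over all genes and -0.04 over the 14 other macrophage markers. Among those 14 markers, 2 had an unadjusted p under 0.05 in edgeR, and they were named after their values were seen. Ms4a7 had 0.67 (SE 0.147, unadjusted p = 0.000689, adjusted p = 0.0941), and Laptm5 had -0.26 (SE 0.115, unadjusted p = 0.0446, adjusted p = 0.379). DESeq2 called 1 of the 14.

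**Figure D3:**
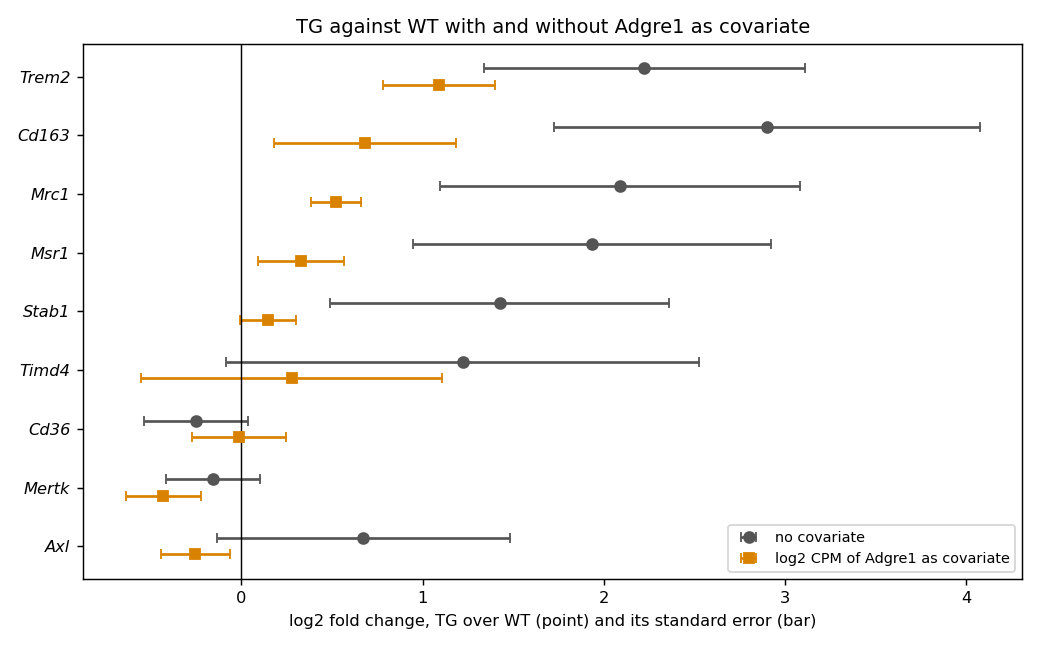
Log2 fold change of TG over WT for the 9 tested receptors, with its standard error as a bar, without a covariate (circles) and with log2 CPM of Adgre1 as covariate (squares). The 6 values above 1 without the covariate come down to between 0.15 and 1.09 with it, and the bars shorten.

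The same contrast is visible as estimated counts per 100 Adgre1 counts of the same library. Mrc1 had 66.5, 67.1, 64.3 and 93.3 in TG1, TG2, TG4 and TG5, and 41.5 (lowest), 50.7 (median) and 57.7 (highest) in WT. All 4 TG libraries lay above all 6 WT libraries, which held for 1 of the 9 members and for 0.0529% of all genes (8 of 15122). Trem2 had 3.67, 6.66, 3.69 and 4.05 in TG1, TG2, TG4 and TG5, and 1.22, 2.31 and 5.05 as the lowest, median and highest WT value. TG2 alone exceeded every WT library, since WT1, with 37 Trem2 counts, stood at 5.05. Stab1 had 48.9, 52.8, 41.3 and 51.3 in TG1, TG2, TG4 and TG5 and between 38.8 and 68.6 in WT, an overlap of the whole TG range.

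Relative to Adgre1 the libraries came much closer together for the receptors with slopes near 1. The SD of log2 CPM over the 10 libraries was 1.70 for Stab1, 1.89 for Mrc1 and 1.82 for Msr1, and that of the log2 ratio to Adgre1 was 0.25, 0.33 and 0.38. For Cd36 and Mertk the ratio widened the spread, with SDs of 2.11 and 1.57 in place of 0.49 and 0.44. Cd36 had 4587 counts per 100 Adgre1 counts in WT1 and 46.2 in TG5.

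**Figure D4:**
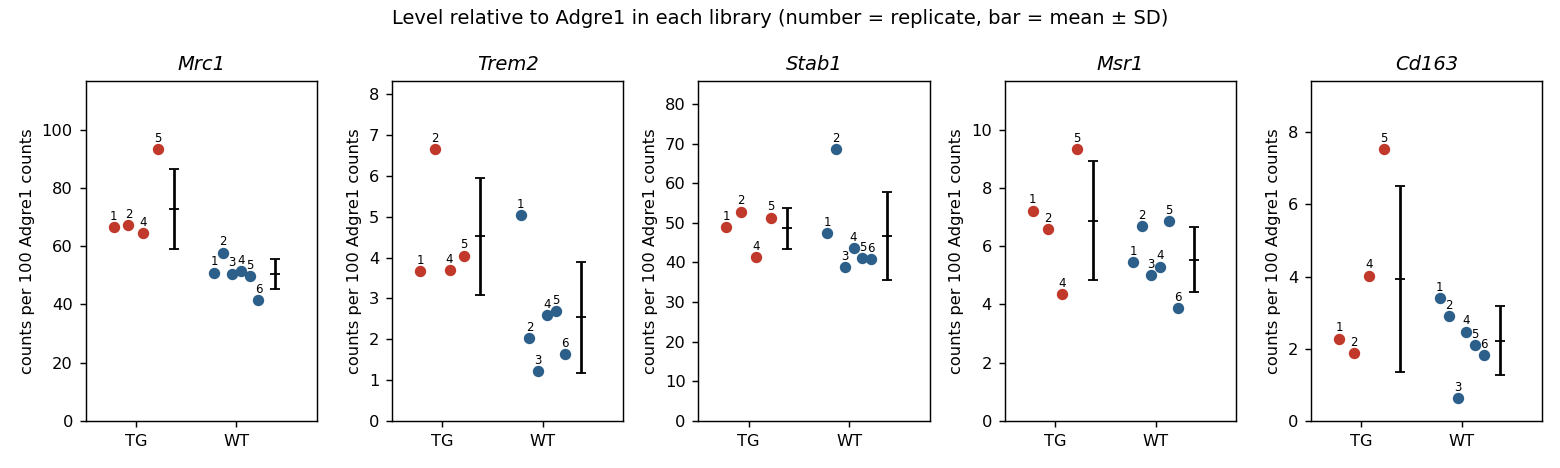
Estimated counts of 5 receptors per 100 Adgre1 counts of the same library, TG left and WT right, points numbered by replicate, with the mean and SD of each group beside them and axes from 0. For Mrc1 the TG points (64.3 to 93.3) and the WT points (41.5 to 57.7) do not overlap, and for the other 4 they do.

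Whether the slope on Adgre1 itself differed with genotype was tested by an interaction term, added after the data had been seen. edgeR called 0 of 15122 genes (853 with an unadjusted p under 0.05). Cd163 had a slope that was 0.63 higher in TG (SE 0.200, adjusted p = 0.833) and Mrc1 one that was 0.18 higher (SE 0.0618, adjusted p = 0.834), and these were the 2 members with an unadjusted p under 0.05.

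Cd36 is transcribed from several start sites, and the table held 5 of its RefSeq transcripts with 3 starts. These transcripts share most of their sequence, so their estimates are less certain than their sum. The middle start (position 17849792, variants 4 and 5) accounted for 84.1% of all Cd36 counts, with 462, 199.8, 520 and 242 CPM in TG1, TG2, TG4 and TG5 and a WT minimum of 157, median of 481 and maximum of 694 CPM. The start nearest the 3′ end of the gene (17835896, variants 2 and 3), whose upstream sequence is printed above, had 41.8, 125, 32.1 and 126 CPM in TG1, TG2, TG4 and TG5, and 12.6 (lowest), 48.9 (median) and 83.4 CPM (highest) in WT. Its share of Cd36 ranged from 1.97% in WT1, the library with the least Adgre1, to 34.4% in TG2, 33.2% in TG5 and 30.9% in WT6. The share did not follow Adgre1 throughout. It was 5.74% in TG4 (Adgre1 229 CPM), and 8.24% in TG1, whose Adgre1 (58.2 CPM) was near that of TG2 (58.6 CPM). The farthest start (17888959, variant 1) held 3.73% of all counts.

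Tested as separate features, the starts had slopes on Adgre1 of opposite sign, 0.34 (edgeR, SE 0.163, adjusted p = 0.137) for the nearest and -0.23 (SE 0.120, adjusted p = 0.154) for the middle one, and neither was called. At equal Adgre1 the log2 fold change of TG over WT was 0.57 (SE 0.504) for the nearest and -0.03 (SE 0.396) for the middle start. Cd36 is also known from proximal tubule, endothelium, platelets and fat. Among the 7 adipocyte markers, Adipoq, Plin1, Cidec and Retn were under 1 CPM in every library, and Cfd, Adipor2 and Car3 were not. Of the 6 platelet markers, 4 (Ppbp, Gp1ba, Gp9 and Tubb1) were so too, while Pf4 and Itga2b averaged 16.7 and 4.27 CPM. The proximal tubule list had all 12 markers present. Endothelial markers summed to between 359 and 581 CPM in TG and between 273 and 835 CPM in WT. The adipocyte list summed to between 126 and 149 CPM in TG and between 149 and 197 CPM in WT, mostly Adipor2 and Car3 (means of 109.6 and 45.2 CPM), which kidney also expresses. The part of these cells in the level of Cd36 was not tested.

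**Figure D5:**
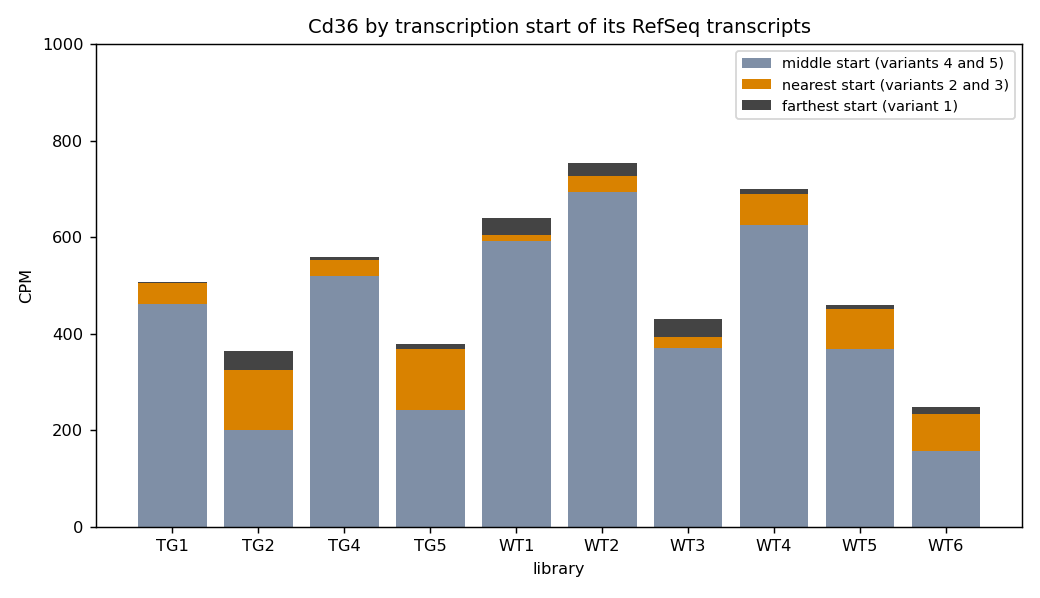
CPM of Cd36 in each library, TG left and WT right, stacked by the transcription start of its RefSeq transcripts. The middle start makes up most of each bar, from 54.9% in TG2 to 93.0% in TG4, and the nearest start is largest in TG2 and TG5 at 125 and 126 CPM.

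Other members also had several transcripts, whose shares varied between libraries. Variant 1 of Axl made up 94.0, 73.6, 54.1 and 58.1% of Axl counts in TG1, TG2, TG4 and TG5, and in WT between 57.9% (WT5) and 99.9% (WT1). Variant 2 of Cd163 had 16.7, 0, 67.6 and 67.8% in TG1, TG2, TG4 and TG5, and 25.9% in WT4, 96.6% in WT5 and 72.9% in WT6. It had 0% in WT1, WT2 and WT3, and in the 4 libraries at 0% Cd163 had between 24 and 57 counts in all. Variant 1 of Trem2 held 83.8% of all Trem2 counts and variant 1 of Msr1 93.6% of all Msr1 counts. Tested as single transcripts, 0 of these were called between TG and WT by edgeR with or without Adgre1 as covariate, where 0.0604% and 0.0557% of all transcripts were called.

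The genes around these receptors were read from 5 lists, in which edgeR called 0 genes between TG and WT, with or without Adgre1 as covariate. An unadjusted p under 0.05 was reached without the covariate by 2 of 20 other scavenger and lectin receptors, 1 of 18 bridging molecules and other uptake receptors, 0 of 18 engulfment genes, 1 of 13 genes around Trem2 and 0 of 11 Fc and complement receptors. At equal Adgre1 it was reached by 1, 1, 0, 3 and 1. Over all genes it was reached by 892 of 15123 without the covariate and by 1953 of 15122 at equal Adgre1. DESeq2 called 1 of them, in the list around Trem2 at equal Adgre1, and limma 0. The median log2 fold changes at equal Adgre1 were -0.23, -0.04, -0.01, 0.14 and -0.01 in the same order, beside -0.02 over all genes.

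The called slopes of the lists are to be read against all genes, of which 19.7% had a called positive slope and 36.0% a called slope of either sign. Of 11 Fc and complement receptors, 10 were called with positive slopes (median 0.92). They were led by the anaphylatoxin receptor C3ar1 (0.91), the IgG receptor Fcgr4 (0.92) and Fcer1g (0.92), the signalling chain of Fcgr4. Of 20 other scavenger and lectin receptors, 14 were called positive (median 0.46), led by Cd68 (0.98), the beta-glucan receptor Clec7a (0.78) and Lrp1 (0.84), a receptor for many ligands. Of 18 bridging molecules and other uptake receptors, 9 were called positive (median 0.20), the first 3 being the complement C1q chains C1qb (0.89), C1qc (0.90) and C1qa (0.86), which coat dying cells. Cd68, the C1q chains, Fcgr1 and Tyrobp also stand in the list of macrophage markers.

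The ligands of the TAM kinases, named after their values were seen, had the following slopes. Pros1, protein S, had 0.24 (edgeR, SE 0.0553, adjusted p = 0.00629) and Gas6, the ligand of both kinases, had 0.01 (SE 0.0374, unadjusted p = 0.756), and at equal Adgre1 their log2 fold changes were 0.21 (SE 0.197) and -0.05 (SE 0.131). Around Trem2, 6 of 13 genes were called positive and 1 negative (median 0.12). These were led by the Trem2 adaptor Tyrobp (0.88), the kinase Syk (0.98) and the Trem2 ligand Apoe (0.62). For TG over WT at equal Adgre1, Apoe had 0.50 (SE 0.262) and Tyrobp -0.14 (SE 0.102). The 3 genes of this list with an unadjusted p under 0.05 in that edgeR fit were named after their values were seen. They were Lgals3 (0.67, SE 0.185), Ctsd (0.31, SE 0.122) and Spp1 (0.45, SE 0.203), and none was called. Without the covariate the 1 such gene was Lgals3 (0.78, SE 0.219), also not called. Of 18 engulfment and post-engulfment genes, 7 were called positive and 1 negative (median 0.06), led by the mitochondrial carrier Ucp2 (0.39), the engulfment adaptor Elmo1 (0.94) and the sterol transporter Abcg1 (0.52).

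The genes whose profiles over the 10 libraries were most like each receptor were found by the root mean square difference of centred log2 CPM, among 12104 genes. Stab1 was nearest to the C-type lectin gene Clec4a1 (0.13), Gpr65 (0.18) and Pld4 (0.21). Mrc1 was nearest to Ms4a6c (0.20), Ms4a6b (0.24) and Msr1 (0.25), Msr1 to Mrc1 (0.25), Ms4a6c (0.27) and P2ry12 (0.28), and Axl to Evi2a (0.18), Csf1r (0.18), the receptor for the macrophage growth factor CSF1, and Rhoh (0.19). Trem2 was nearest to P2ry12 (0.47), Hk2 (0.49) and the macrophage lysozyme gene Lyz2 (0.50), Cd163 to F13a1 (0.39), Itgam (0.50) and Tlr8 (0.65), and Timd4 to Prkcb (0.67), Trem2 (0.75) and Cd68 (0.94). Cd36 was nearest to the carboxylesterase genes Ces2d-ps (0.12) and Ces2c (0.12) and the zinc transporter gene Slc30a2 (0.14), and Mertk to Vps13b (0.12), Herc2 (0.13) and Arap2 (0.14). The difference from Adgre1 itself was 0.23 for Stab1, 0.31 for Mrc1, 1.49 for Mertk and 1.997 for Cd36, in log2 units.

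Further marker lists of cells that carry some of these receptors were low. Monocyte markers (Ace 154 and Ccr2 49.5 CPM) summed to between 146 and 497 CPM in TG and between 175 and 310.1 CPM in WT. Ace, the highest of them, had a slope of -0.14 on Adgre1 (not called), while 7 of the 8 had positive slopes and 6 were called. The share of this sum that came from monocytes was not tested. Dendritic cell markers (Cd209a 5.27 and Clec9a 4.39 CPM) summed to between 9.83 and 51.8 CPM in TG and between 6.72 and 54.4 CPM in WT, and capsule and peritoneal macrophage markers (Folr2 4.04 and Fcna 3.41 CPM) to between 2.77 and 59.4 CPM in TG and between 2.99 and 27.3 CPM in WT, with Gata6 under 1 CPM throughout. Neutrophil markers (Csf3r 5.004 and Mmp9 2.23 CPM) reached 31.2 CPM in TG and 20.1 CPM in WT, with Ly6g and Camp at 0 in all libraries. T and B cell markers (Cd4 14.2 and Cd79b 6.51 CPM) reached 87.5 CPM in TG and 51.3 CPM in WT, and platelet markers (Pf4 16.7 and Itga2b 4.27 CPM) 87.8 CPM in TG and 29.7 CPM in WT. The part of these cells in the receptor levels was not tested.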

How the data were processed

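Kidney cells selected for F4/80 from 4 TG and 6 WT mice gave the 10 RNA-seq libraries used. The deposited table held estimated counts per RefSeq transcript (mm10), made by the authors as whole numbers with no scaling for depth. It also held FPKM, which the authors scaled for length and depth. The submitters' processing notes name DESeq2, StringTie 1.3.4d, Bowtie2 2.3.4.1, HISAT2 2.1.0 and Trimmomatic 0.38. The step each tool did, and any use of strand in counting, are not stated there, so overlapping or antisense genes may share reads.

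Counts of 36779 transcripts (1 line of the table was empty) were summed over 24541 symbols, filtered with filterByExpr and scaled by TMM. edgeR 4.0.16 (R 4.3.3, robust quasi-likelihood) tested genotype alone, and genotype with log2 CPM of Adgre1 as covariate (prior count 2, Adgre1 itself left out). A call was a Benjamini-Hochberg adjusted p under 0.05 over all genes. Each standard error was the absolute log2 value divided by the root of F. CPM are TMM-scaled. The covariate fit was tested on counts simulated from the kind of model that edgeR fits. Adgre1 was nearly free of noise there, so the effect of error in the measured Adgre1 was not tested. Figures used matplotlib 3.10.9. Alternatives were DESeq2 1.42.0, limma 3.58.1, other scalings, filters and covariates, single transcripts, a replicate block and leaving out each library.

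Members, lists and the rule for named genes (all members, the 3 genes most like each, and the 3 genes of each list with the smallest p) were chosen with earlier results of these data known. Limits from 0 counts use 3 counts per library.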

Additional observations from a re-analysis of the deposited data

How the results depend on the processing

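With 4 against 6 mice, the standard error of a member's TG over WT value was between 0.260 and 1.304 on the log2 scale without the covariate, which sets the size of difference that can pass. Marco was under 1 CPM in all libraries, Timd4 in all but TG5 and WT6, Cd163 and Trem2 in WT1, WT2 and WT3, and Msr1 in WT1, and these values rest on few counts. Timd4 did not pass a minimum of 1 CPM in 4 libraries and was not tested there, which left 7 members with a called slope.

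Of 573 member values under the alternatives, 531 kept direction and side of the threshold, 17 lost a call, 6 gained one and 19 changed sign. Leaving out 1 library, the number of genes called ran from 14 to 24 between TG and WT (30 with all), from 23 to 64 at equal Adgre1 (51) and from 3477 to 5546 for slopes (5438). Members called stayed at 0 in both group comparisons and ran from 6 to 8 for slopes, and the Adgre1 fold change ran from -0.13 to 2.05. Over the same fits the TG over WT values ran from -0.0369 to 2.48 for Msr1, -0.0566 to 2.22 for Stab1, -0.23 to 2.04 for Timd4, -0.32 to 1.296 for Axl and -0.35 to 0.0044 for Mertk, and at equal Adgre1 from -0.28 to 0.21 for Cd36 and from -0.34 to 0.75 for Timd4.

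DESeq2 called 9 member slopes (Cd36 at -0.17), 143 genes between TG and WT, 333 at equal Adgre1 with 2 members, and single transcripts gave 13, 11 and, for slopes, 3439 genes. With an endothelial score added 78 genes were called at equal Adgre1, 368 slopes and 5 member slopes, and Timd4 was at -0.26; with a proximal tubule score, added after seeing the data, 3350 slopes were called and Cd36 was at 0.0198. limma put Cd36 at 0.0133 at equal Adgre1. The causes were not tested.

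Whether the shared replicate numbers pair the mice is not settled by the data, and they were not treated as pairs, since 1 of the 4 same-number correlations was under 0.1: deviations from group means correlated at 0.43, 0.28, 0.02 and 0.44 for numbers 1, 2, 4 and 5, and TG2 correlated best with WT1 (0.46). In the 8 libraries with shared numbers the replicate block gave 217 genes between TG and WT with 3 members (Trem2, Mrc1 and Axl, adjusted p = 0.0243, 0.0393 and 0.0424), where the same 8 libraries gave 21 and 0 without it. Adgre1 was then at 1.70 (adjusted p = 0.0302). At equal Adgre1 and for slopes the block left 0 genes and 0 members called, with Cd163 at -1.21, Mrc1 at -0.21, Msr1 at -0.66, Stab1 at -0.68 and the Cd36 slope at 0.34. With 8 libraries, terms for number, genotype and Adgre1 left few degrees of freedom, so the absence of calls in that fit decides nothing. Timd4 was at -0.0523 in those libraries at equal Adgre1 without the block.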

Other observations

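Beside Mrc1, 7 genes had more estimated counts per 100 Adgre1 counts in all 4 TG libraries than in any WT library, and they were singled out after their values were seen. A pair of them are surface receptors of macrophages. Siglec1, which encodes the sialic acid-binding lectin CD169, had between 5.81 and 10.5 counts per 100 Adgre1 counts in TG and between 0.409 and 5.201 in WT, and a log2 difference of TG from WT at equal Adgre1 of 0.78 (edgeR, SE 0.384, adjusted p = 0.422). Gpr34, a lysophosphatidylserine receptor, had between 4.65 and 6.46 in TG and between 2.85 and 4.09 in WT, and a log2 difference of 0.76 (edgeR, SE 0.159, adjusted p = 0.0841). Neither passed over all genes. The amino acid transporter gene Slc7a3 (adjusted p = 0.00186), Sult4a1 (0.00455), Arhgap36 (0.0148) and Ugt2b35 (0.0217) were called by edgeR at equal Adgre1 and had at most 0.349 counts per 100 Adgre1 counts in any WT library. Gm5086 had an adjusted p of 0.412.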
